A study of Mus musculus with 24 samples.

Results

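The comparison described here is that of Atad2 knockout (KO) and wild-type (WT) testis at day 26 after birth, over all genes. Its members are the 4 libraries whose labels give day 26, 2 KO and 2 WT, out of 24 libraries in the series, and every gene of their count tables entered. The series follows WT and homozygous Atad2 KO males through the first wave of spermatogenesis, at days 20, 22, 24 and 26, and asks how loss of the bromodomain and AAA+ ATPase protein ATAD2 alters transcription as haploid germ cells form. KO males carry on both copies an Atad2 allele in which a lacZ cassette is fused after the first 11 exons and in which exon 12 and the neo cassette were removed by crossing with mice that express Cre recombinase ubiquitously from the CMV promoter, so somatic and germ cells alike carry the allele. WT males carry the intact gene, neither group received a treatment, and the labels give no strain. Libraries are called here KO_1, KO_2, WT_1 and WT_2 after the replicate numbers of the labels.

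In the first wave the most advanced germ cells of a testis move on nearly together, while earlier stages remain present behind them. Spermatogonia enter meiosis, and spermatocytes pass through a long pachytene stage in which unpaired X and Y chromosomes are silenced. Round spermatids follow after the meiotic divisions. ATAD2 binds acetylated histone H4 through its bromodomain and is known to act on the turnover of histone chaperones, such as HIRA, which deposits the histone variant H3.3, and FACT. Spermatids later replace nearly all their histones, first with transition proteins and then with protamines.

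Each library was made from total RNA after removal of ribosomal RNA, with strand kept, and sequenced as read pairs. The counts assigned to genes summed to between 14810101 (WT_2) and 19288285 (KO_2), and 19162 to 19381 genes had at least 1 count. At these depths 3 counts, taken as the floor of detection, correspond to a CPM (count scaled to library size) of 0.156 to 0.203. Levels below are CPM with the TMM factors of edgeR applied and are not divided by gene length, so they are compared between libraries and never between genes. Across 10946 well-measured genes the log2 difference between the KO replicates had an SD of 0.168, and that between the WT replicates an SD of 0.264. The tissue label is testis while the extraction protocol names a purified spermatogenic fraction. Markers of Sertoli cells, Leydig cells, peritubular cells, endothelium and macrophages all had counts in every day 26 library. Epididymal transcripts were present in the second replicate of each genotype: Crisp1 had 0.0689 and 109 CPM in KO_1 and KO_2, and 0.174 and 479 CPM in WT_1 and WT_2. All 4 haemoglobin genes of the blood list were listed at 0 in the 4 libraries. In such bulk RNA, fewer cells of a type and less RNA per cell cannot be told apart. The study's methods call the samples of an age biological replicates, and the labels, which give 4 libraries per genotype at day 20 where the methods give another number, do not name the animals, so the p-values measure the spread between these libraries.

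The targeted gene was examined first. Atad2 (minus strand of chromosome 15, 58094044 to 58135082) stood at 52.5 and 53.0 CPM in the KO libraries and at 113 and 138 CPM in the WT libraries. The genotypes did not overlap, and both libraries of each genotype follow their labels. The level was 2.38-fold lower in KO, with a log2 fold change of -1.25 (SE 0.255) and an adjusted p of 0.0628 in the edgeR fit over all 24 libraries, which misses the threshold of 0.05. In the edgeR fit on the 4 day 26 libraries the value was -1.24 (SE 0.113, adjusted p = 0.00021). Counts join all exons of a gene, so the transcript that runs from the first 11 exons into lacZ is counted with the rest.

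The number of genes called differed widely between fits. With all 24 libraries in the fit, 8 of 17170 genes tested were changed at an adjusted p under 0.05 (0.0466%), 8 lower and 0 higher in KO, and 1979 genes (11.5%) had an unadjusted p under 0.05. Without WT replicate 2 of day 20 the same fit called 103 genes, 39 higher and 64 lower, and without any other single library it called 0 to 2 higher genes. That library stood apart from its group, with a chi-square per degree of freedom of 94.2 to 129 against the other WT libraries of day 20, where all other pairs of replicates lay between 5.07 and 53.0, and with 3.26% of its counts on mitochondrial ribosomal RNA against 0.170% to 1.06% elsewhere. DESeq2 on the same libraries called 153 genes, 77 higher and 76 lower. With the 4 day 26 libraries alone, hereafter the day 26 fit, edgeR called 2104 of 16465 genes (12.8%), of which 1236 (7.51%) were higher and 868 (5.27%) lower. Log2 fold changes and their SE are from the fit over all 24 libraries unless the day 26 fit is named. The biological coefficient of variation behind these calls was 0.201 over all libraries and 0.116 in the day 26 fit, which has 2 residual degrees of freedom. The 8 changed genes were among the 2104, of which 1163 had an unadjusted p under 0.05 with all libraries. The day 26 fit itself called 17 genes without KO_1 and 13 without KO_2, against 3115 without WT_1 and 4823 without WT_2. Most changes were small: 27.5% of genes tested were lower in KO by over 1.2-fold, 19.2% were higher by as much, and the median log2 fold change was -0.04. The KO and WT libraries of a gene did not overlap, KO higher, for 27.8% of genes, and did not overlap, KO lower, for 31.1%. These shares are the background for the counts of non-overlapping members given below.

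**Figure D1:**
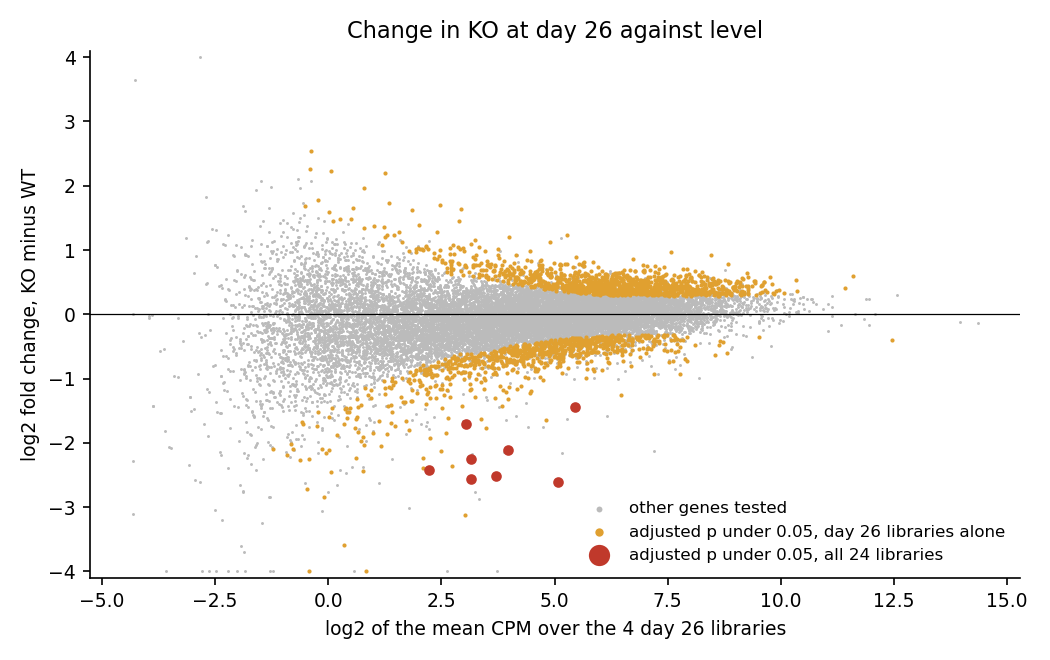
Each point is a gene tested, with the log2 of its mean CPM over the 4 day 26 libraries on the x axis and its log2 fold change, KO minus WT, from the fit over all 24 libraries on the y axis (values beyond 4 in either direction are drawn at 4). The 8 genes changed with all libraries in the fit lie between -1.45 and -2.60, and the genes that pass only in the day 26 fit lie on both sides of 0.

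The 8 changed genes comprised 5 protein-coding genes and 3 RIKEN clone loci. Asb4, an ankyrin-repeat and SOCS-box protein encoded by an imprinted gene, had 8.13 and 11.02 CPM in KO against 51.4 and 65.3 CPM in WT. It lies on chromosome 6 from 5383386 to 5433022. Its mean was 6.10-fold lower in KO (log2 fold change -2.60, SE 0.408, adjusted p = 0.00969 in edgeR). The highest KO library lay far under the lowest WT library, and the same holds for each of the 8 genes. Ptpro, a receptor-type tyrosine phosphatase known from podocytes and neurons, had 2.20 and 2.93 CPM in KO against 14.6 and 15.8 CPM in WT. It lies on chromosome 6 from 137252319 to 137463233, and its log2 fold change was -2.56 (SE 0.33, adjusted p = 0.00118 in edgeR). Arfgef3, of the family of exchange factors for ARF GTPases, had 3.92 and 3.84 CPM in KO against 19.0 and 25.4 CPM in WT. It lies on chromosome 10 from 18581839 to 18743949, and its log2 fold change was -2.51 (SE 0.306) with the lowest adjusted p of the comparison, 0.000953 in edgeR.

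Mdga2, a membrane-anchored immunoglobulin-domain protein that binds neuroligins at synapses, had 3.99 and 3.79 CPM in KO against 11.5 and 13.9 CPM in WT. It spans chromosome 12 from 66466060 to 67222549, and its log2 fold change was -1.70 (SE 0.26, adjusted p = 0.00754 in edgeR). Fcgr3, a low-affinity receptor for the constant part of IgG carried by macrophages and other leukocytes, had 21.8 and 25.2 CPM in KO against 62.4 and 65.9 CPM in WT. It lies on chromosome 1 from 171051174 to 171064935, and its fall was the smallest of the 8 (log2 fold change -1.45, SE 0.264, adjusted p = 0.0401 in edgeR). Within each genotype the Fcgr3 libraries were close together. The summed level of the 12 macrophage genes was 301 and 322 CPM in KO against 451 and 309 CPM in WT, with no defining marker at 0. In the day 26 fit 2 of them fell, Cx3cr1 and the scavenger receptor gene Cd163 (1.58 and 1.26 CPM in KO against 3.65 and 3.09 CPM in WT). The part of macrophage number in the Fcgr3 result was not tested.

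The clone loci were A330076C08Rik on chromosome 13, 4933406K04Rik on chromosome 12 and 4930522O17Rik on chromosome 4. A330076C08Rik had 1.65 and 1.26 CPM in KO against 7.99 and 7.68 CPM in WT (log2 fold change -2.43, SE 0.347, adjusted p = 0.00375 in edgeR). 4933406K04Rik had 2.20 and 3.90 CPM in KO against 14.6 and 14.8 CPM in WT (log2 fold change -2.25, SE 0.373, adjusted p = 0.0152 in edgeR). 4930522O17Rik, annotated as an antisense transcript, had 4.82 and 6.88 CPM in KO against 28.7 and 22.2 CPM in WT (log2 fold change -2.12, SE 0.384, adjusted p = 0.0401 in edgeR). All 3 loci were well above the floor in both genotypes, so none of these falls is a loss of detection. Without single libraries the log2 fold change stayed between -2.70 and -2.29 for Arfgef3 and between -2.76 and -2.35 for Ptpro. For Fcgr3 it stayed between -1.54 and -1.32. The range was wider for 4933406K04Rik, from -2.71 to -1.88, and for 4930522O17Rik, from -2.38 to -1.86. With all other libraries kept, 0 genes were changed without KO_1 and 0 without KO_2. Without WT_1, 5 of the 8 remained changed, and without WT_2, 3 remained. Fcgr3 and 4930522O17Rik, the calls nearest the threshold, missed it in 14 and 13 of 24 leave-one-out fits, the library left out being mostly one of an earlier age, and also with RLE size factors, which called 6 genes. With the replicate number as a block Mdga2, Fcgr3, 4933406K04Rik and 4930522O17Rik did not pass. In the day 26 fit all 8 passed, with adjusted p-values of 0.000141 to 0.00117 in edgeR.

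**Figure D2:**
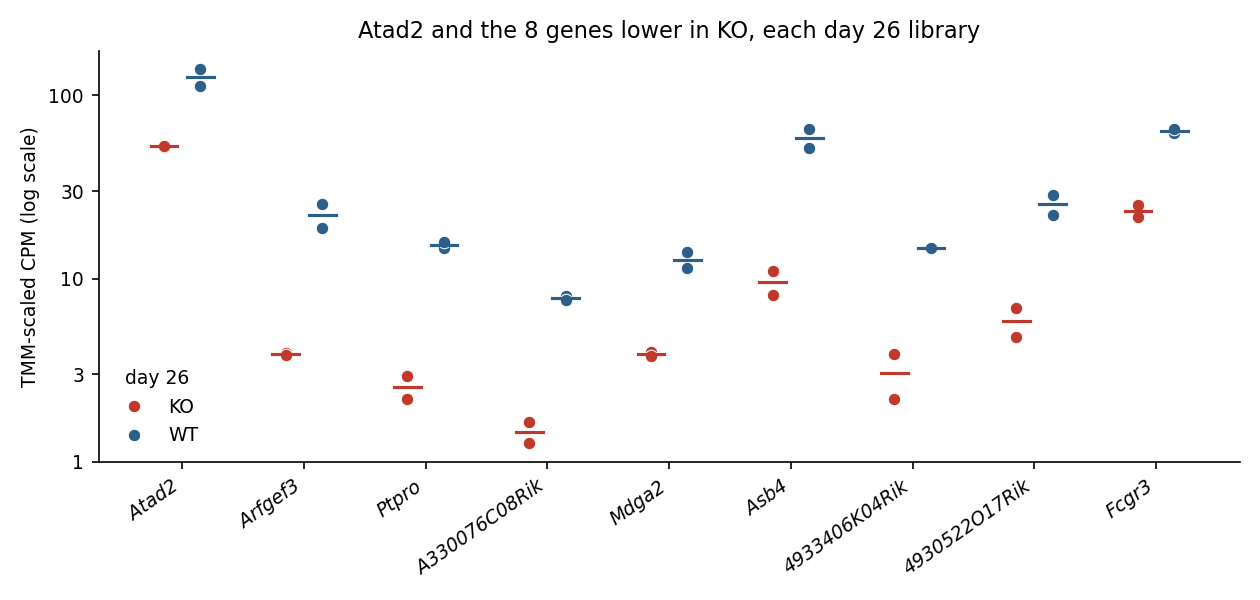
Points are the TMM-scaled CPM, on a log scale, of Atad2 and the 8 changed genes in each day 26 library (KO and WT, 2 libraries each), and lines are the means. For every gene both KO points lie below both WT points, from 1.26 CPM in the lowest KO library of A330076C08Rik to 138 CPM in the highest WT library of Atad2.

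The promoters of the coding genes with the largest of these falls are shown with that of Cox6b2, a germ cell gene whose level was higher in KO, so that their base composition can be compared. Sequences are those RefSeq gives on GRCm38.p6, from 250 bases before to 50 after the start of the gene, on the strand of the gene. They cover chr6:5383136-5383435 (plus strand), chr6:137252049-137252348 (plus), chr10:18743709-18744008 (minus), chr12:67222500-67222799 (minus) and chr7:4753045-4753344 (minus). Capitals mark matches on either strand to the motifs CCAAT and GGGCGG. Another 4 motifs named further on were searched in the same way.
Asb4: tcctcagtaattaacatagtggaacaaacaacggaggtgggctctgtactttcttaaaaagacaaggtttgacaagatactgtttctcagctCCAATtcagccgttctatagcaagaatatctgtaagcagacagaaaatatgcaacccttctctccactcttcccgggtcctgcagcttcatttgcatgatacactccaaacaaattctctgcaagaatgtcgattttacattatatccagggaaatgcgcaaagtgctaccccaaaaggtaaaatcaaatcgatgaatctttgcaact
Ptpro: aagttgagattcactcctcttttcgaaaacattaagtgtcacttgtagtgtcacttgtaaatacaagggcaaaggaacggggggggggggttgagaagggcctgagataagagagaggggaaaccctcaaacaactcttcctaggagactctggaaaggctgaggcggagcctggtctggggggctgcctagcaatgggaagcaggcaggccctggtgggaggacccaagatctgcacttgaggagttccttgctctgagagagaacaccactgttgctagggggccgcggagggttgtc
Arfgef3: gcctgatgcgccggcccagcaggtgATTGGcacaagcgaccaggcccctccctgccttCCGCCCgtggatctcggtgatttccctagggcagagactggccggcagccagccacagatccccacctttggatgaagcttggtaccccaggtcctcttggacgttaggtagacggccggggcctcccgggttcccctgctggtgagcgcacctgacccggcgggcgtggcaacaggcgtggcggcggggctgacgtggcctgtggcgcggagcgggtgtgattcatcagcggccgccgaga
Mdga2: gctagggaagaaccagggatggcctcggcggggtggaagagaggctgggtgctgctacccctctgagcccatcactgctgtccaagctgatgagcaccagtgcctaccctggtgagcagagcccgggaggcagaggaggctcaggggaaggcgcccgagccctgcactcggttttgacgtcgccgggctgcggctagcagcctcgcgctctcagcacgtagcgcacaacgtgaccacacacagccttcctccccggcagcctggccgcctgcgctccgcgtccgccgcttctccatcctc
Cox6b2: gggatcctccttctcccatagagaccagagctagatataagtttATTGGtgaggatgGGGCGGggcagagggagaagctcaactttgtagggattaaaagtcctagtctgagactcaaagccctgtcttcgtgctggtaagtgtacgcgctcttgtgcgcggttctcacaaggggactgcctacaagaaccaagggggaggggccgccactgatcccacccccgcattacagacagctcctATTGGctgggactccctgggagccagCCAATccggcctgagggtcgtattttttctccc

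The promoters differed widely in composition. The Asb4 promoter held 40.3% G and C with 6 CpG sites, and that of Ptpro 54.7% with 5 sites. Those of Arfgef3 and Mdga2 were CpG-rich, at 68.7% with 25 sites and 67.7% with 22 sites. Over 32851 promoters of the same length the median was 52.7% with 7 sites. CCAAT, in 37.4% of all promoters, was found once in Asb4 and once in Arfgef3, and GGGCGG, in 35.7% of all, once in Arfgef3. None of the 6 motifs was found in Ptpro or Mdga2. In Cox6b2 CCAAT was found 3 times and GGGCGG once. Promoters were at hand for all 8 changed genes: 2 held CCAAT, 2 held GGGCGG, and 0 held TGACGTCA, to which CREM binds (1.79% of all promoters), AACNGTT, to which MYB proteins bind (4.45%), the TATA box letters TATAAA (13.6%) or the E box CACGTG (7.15%). A match is a description of these windows only.

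The genes with the largest changes in the day 26 fit were then taken, 12 in each direction, among genes with a mean of at least 5 CPM, no overlap of genotypes and a name that is not a clone name. The values that chose them are given as a description. The falls were led by Kcnab1, a regulatory beta subunit of voltage-gated potassium channels, with 2.07 and 1.32 CPM in KO against 12.4 and 16.9 CPM in WT. Grin2b, a subunit of the NMDA-type glutamate receptor, had 2.55 and 1.84 CPM in KO against 12.2 and 10.3 CPM in WT. E2f2, a transcription factor of the cell cycle, had 2.96 and 2.35 CPM in KO against 9.21 and 9.83 CPM in WT. For all 3 the KO libraries held far less than the WT libraries.

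Tagap, a GTPase-activating protein of activated T cells, had 2.34 and 1.84 CPM in KO against 7.94 and 10.3 CPM in WT. Ptprv, a phosphatase gene annotated as a processed transcript, had 12.7 and 14.6 CPM in KO against 44.5 and 40.6 CPM in WT, and Aspn, a small proteoglycan of the extracellular matrix, 2.41 and 3.67 CPM in KO against 7.36 and 9.47 CPM in WT. In each the higher KO library lay under the lower WT library, as the choice requires. The pseudogenes H2afy3 and Scgb2b23-ps also belong here (log2 fold changes -1.63 and -1.77). Read pairs from near-identical copies were discarded, so their levels are uncertain. With all 24 libraries in the fit, the adjusted p of these 8 genes ran from 0.0556 for H2afy3 to 0.326 for Aspn (edgeR), and the remaining 4 of the 12 were Asb4, Ptpro, Arfgef3 and Mdga2.

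Rises were smaller. Lhfpl3, of a family of tetraspan membrane proteins, led them with 7.30 and 9.70 CPM in KO against 2.49 and 2.73 CPM in WT (3.26-fold higher, log2 fold change 1.70, SE 0.384, adjusted p = 0.0862 in edgeR with all libraries). Cox6b2, the testis form of a subunit of cytochrome c oxidase, had 228 and 273 CPM in KO against 127 and 129 CPM in WT (1.96-fold higher, log2 fold change 0.97, SE 0.223, adjusted p = 0.0927 in edgeR). Rd3, a regulator of retinal guanylate cyclase, had 38.8 and 42.9 CPM in KO against 20.6 and 16.6 CPM in WT. In each of these genes the WT libraries were lower without overlap, and the KO means were between 1.90-fold and 3.26-fold the WT means over the 12 genes.

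Ghrl, which encodes the hormone ghrelin, had 16.04 and 20.1 CPM in KO against 9.10 and 8.82 CPM in WT, and Agtr1a, an angiotensin II receptor, 25.5 and 33.2 CPM in KO against 14.9 and 14.6 CPM in WT. Hist1h4m, a gene of histone H4, had 22.9 and 21.6 CPM in KO against 12.2 and 7.10 CPM in WT. With all libraries in the fit its log2 fold change was smaller than its SE of 1.56, and histone H4 genes are near-identical copies, so its level is uncertain. The other 6 were Necab2, Slc17a9, Prss56, Dok7, Cyb5r2 and Ifitm7, at log2 fold changes of 0.93 to 1.09. With all 24 libraries none of the 12 passed the threshold (lowest adjusted p 0.0813, Slc17a9, edgeR).

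Whether day 26 differs from the nearest age was tested directly. Of 17170 genes, 0 had a KO effect at day 26 that differed from that at day 24 (edgeR, adjusted p under 0.05), and 0 by DESeq2, while 588 (3.42%) had an unadjusted p under 0.05. Against the mean of days 20 to 24, 0 genes passed in edgeR and 3 in DESeq2, with 1413 (8.23%) at an unadjusted p under 0.05. The named falls were also low at day 24: Asb4 had a log2 fold change of -2.79 (SE 0.416) there, Kcnab1 -2.80 (SE 0.889), Ptpro -1.85 (SE 0.32) and E2f2 -1.21 (SE 0.432). The rises were less alike. Lhfpl3 stood at 1.34 (SE 0.393) at day 24 and Prss56 at 0.97 (SE 0.344), whereas Cox6b2 stood at 0.01 (SE 0.221) and Necab2 at 0.18 (SE 0.309). For Cox6b2 the difference between the ages was 0.96 (SE 0.313), and for Necab2 0.91 (SE 0.434), and neither passed the threshold in edgeR.

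**Figure D3:**
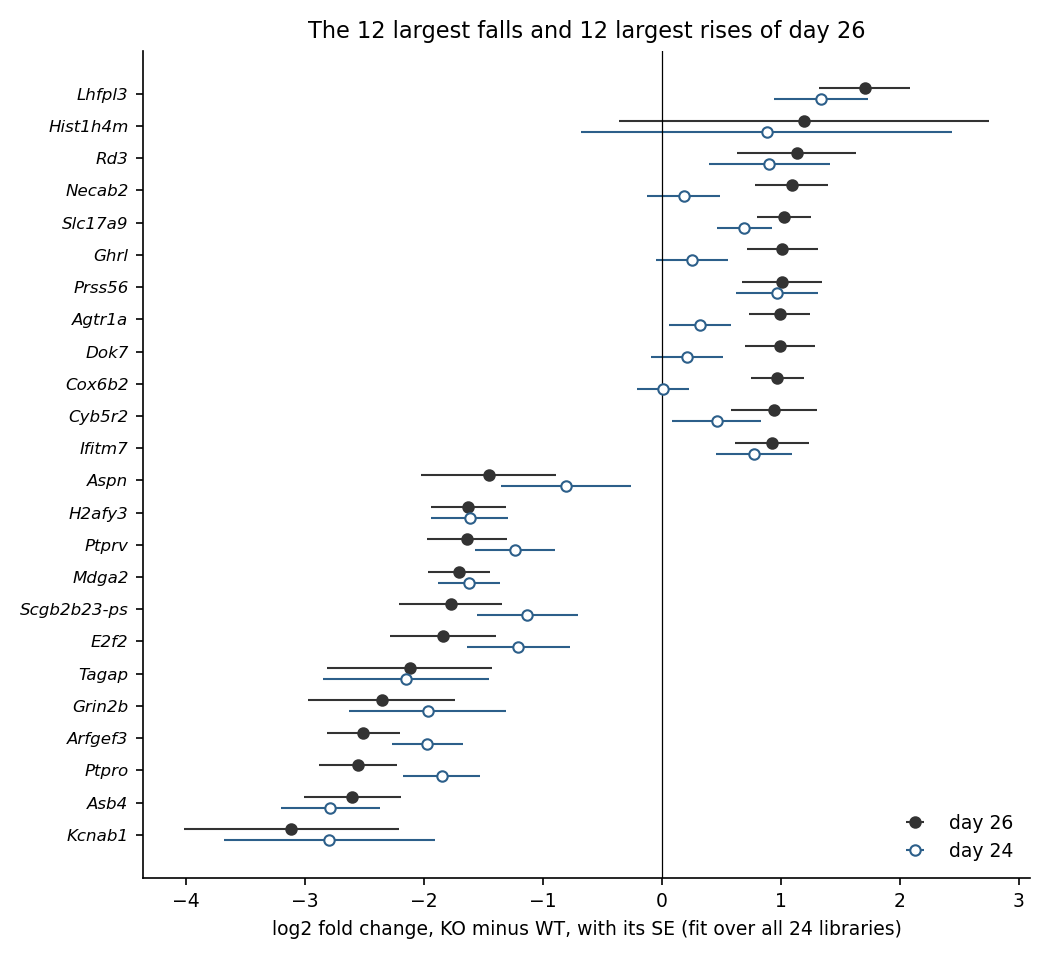
Log2 fold changes, KO minus WT, with their SE from the fit over all 24 libraries, are shown for the 12 largest falls and 12 largest rises of day 26 (filled points) beside day 24 (open points). Falls such as Asb4 (-2.60 and -2.79) lie together at both ages, while Cox6b2 lies at 0.97 at day 26 and 0.01 at day 24.

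Genes next to these loci were examined to see whether whole regions moved. Within 500 kb of the 8 changed genes 67 other genes were tested, of which 0 were changed with all libraries in edgeR. In the day 26 fit 5 of 66 were higher and 2 lower, close to or under the 7.51% and 5.27% of all genes, and the median log2 fold change was -0.09. Around Asb4, the imprinted neighbour Ppp1r9a had 94.1 and 82.0 CPM in KO against 103 and 106 CPM in WT (log2 fold change -0.25, SE 0.145), and Pon2 43.9 and 45.9 CPM in KO against 41.2 and 41.5 CPM in WT. Neither passed in either fit. Ptpro and Grin2b lie 1078808 bases apart on chromosome 6. Emp1, a membrane protein gene near Grin2b, had 13.4 and 13.9 CPM in KO against 34.2 and 28.1 CPM in WT (log2 fold change -1.19, SE 0.242, adjusted p = 0.0628 with all libraries and 0.00151 in the day 26 fit, edgeR). Close to Atad2 itself, Fbxo32, which encodes the ubiquitin ligase subunit atrogin-1, had 9.98 and 8.38 CPM in KO against 23.1 and 19.4 CPM in WT (log2 fold change -1.21, SE 0.328, adjusted p = 0.159 with all libraries and 0.00261 in the day 26 fit, edgeR). Emp1 and Fbxo32 were picked after their values were seen. Within 5 Mb of Atad2, 6 of 38 genes tested in the day 26 fit were lower and 1 higher (5.27% and 7.51% of all genes), the pseudogene H2afy3, 4083139 bases away, among the former.

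Germ cell genes were described along the wave with lists of marker genes. In the lists below, none of the members named changed with all libraries in the fit unless this is said, members called in the day 26 fit were picked for naming after their values were seen, and counts are of members tested. Counts of calls in the day 26 fit are to be read against the 7.51% of all genes that rose and the 5.27% that fell in it. Of 18 pachytene genes 17 had a log2 fold change above 0, against 45.7% of all genes, and the median was 0.21. In the day 26 fit 6 rose and 0 fell, and in 14 the KO libraries lay above the WT libraries. Ybx2, an RNA-binding protein that stores germ cell transcripts, had 1393 and 1647 CPM in KO against 974 and 1135 CPM in WT (log2 fold change 0.53, adjusted p = 0.0141 in the edgeR day 26 fit). Hspa2, the chaperone of the synaptonemal complex, had 1466 and 1464 CPM in KO against 1070 and 1216 CPM in WT, and Aurka, a kinase of the meiotic spindle, 222 and 237 CPM in KO against 151 and 162 CPM in WT. Both KO libraries lay above both WT libraries for the 3 genes.

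Genes of the meiotic divisions were shifted likewise. Of 28 members 22 were above 0, with a median of 0.28, and 12 rose and 1 fell in the day 26 fit. KO libraries lay above WT libraries in 18 and below in 3. Ccna1, the meiotic cyclin A, had 178 and 229 CPM in KO against 130 and 139 CPM in WT, and Pttg1, the securin that holds separase, 76.9 and 95.0 CPM in KO against 60.0 and 52.9 CPM in WT. The member that fell was the phosphatase Cdc25b, with 2.96 and 2.87 CPM in KO against 6.14 and 4.45 CPM in WT. At day 24 the median of these 28 genes was -0.12, and the difference between the ages was not tested for the list as a whole.

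Earlier germ cells had medians nearer 0. The 15 spermatogonial genes had 7 above and 8 below 0, a median of -0.09 (-0.01 without KO_2) and 0 calls in either direction among the 14 tested in the day 26 fit, while KO libraries lay below WT libraries in 7 and above in 1. Kit, the receptor of differentiating spermatogonia, had 43.0 and 43.4 CPM in KO against 67.4 and 48.9 CPM in WT, and Id4, a factor of the stem cell pool, 38.8 and 38.8 CPM in KO against 31.2 and 42.2 CPM in WT. Of the 15 genes of early meiosis 10 were above 0 (median 0.06, but -0.06 without WT_1 and 0.18 without WT_2), and Spo11, which cuts DNA to start recombination, was the single one called in the day 26 fit, with 96.4 and 101 CPM in KO against 64.6 and 65.4 CPM in WT. The longer list of the synaptonemal complex and recombination had 24 of 36 above 0 (median 0.14, and near 0 without WT_1), with 6 rises and 2 falls in the day 26 fit. Syce1, of its central element, had 356 and 355 CPM in KO against 229 and 266 CPM in WT, while Hormad1, of the axes, had 236 and 225 CPM in KO against 316 and 326 CPM in WT.

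Among spermatid genes, the 29 of round spermatids had a median of 0.07, which was near 0 with library totals in place of TMM factors and 0.16 without KO_1, with 20 above 0 and 2 rises and 1 fall in the day 26 fit, shares close to those of all genes. All 22 genes of elongating spermatids were above 0 (median 0.36, against 3.37 at day 20, 1.79 at day 22 and 0.69 at day 24). In the day 26 fit 4 rose and 0 fell, and in 16 the KO libraries were above the WT libraries. Odf4, of the outer dense fibres, had 151 and 159 CPM in KO against 92.4 and 103 CPM in WT (log2 fold change 0.67, SE 0.185, adjusted p = 0.00324 in the edgeR day 26 fit). Prm1, protamine 1, had 739 and 787 CPM in KO against 944 and 385 CPM in WT. Its WT libraries lay on either side of the KO libraries. Tnp2, transition protein 2, had 546 and 530 CPM in KO against 423 and 246 CPM in WT. For Prm1 and Tnp2, though not for Odf4, WT_1 was above WT_2. The summed level of the list was 6344 and 6416 CPM in KO, 5718 CPM in WT_1 and 4488 CPM in WT_2. Without WT_2 the list median was 0.25 and without WT_1 0.49.

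Structural genes of the flagellum lay above 0 for the most part. Of 41 genes of the axoneme and intraflagellar transport 36 were above 0 (median 0.23), 14 rose and 0 fell in the day 26 fit, and KO libraries lay above WT libraries in 26. Dnaic2, an intermediate chain of outer arm dynein, had 130 and 144 CPM in KO against 73.9 and 77.2 CPM in WT (log2 fold change 0.86, SE 0.325, adjusted p = 0.00113 in the edgeR day 26 fit and 0.307 with all libraries). Rsph3a, of the radial spokes, had 164 and 148 CPM in KO against 86.3 and 97.1 CPM in WT, and Tcte1, of the nexin-dynein regulatory complex, 337 and 411 CPM in KO against 239 and 235 CPM in WT. The KO libraries were above the WT libraries for all 3. Dnah8, a heavy chain of axonemal dynein, had 4275 and 4236 CPM in KO against 3456 and 3788 CPM in WT and did not pass (adjusted p = 0.134 in the edgeR day 26 fit).

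Of 27 genes of the outer dense fibres, fibrous sheath and related tail parts, 25 were above 0 (median 0.28), with 9 rises and 0 falls in the day 26 fit. Tekt3 and Tekt4, tektins of the microtubule doublets, had log2 fold changes of 0.48 (SE 0.263) and 0.46 (SE 0.306), and Odf1 one of 0.36 (SE 0.678). Sperm ion channels and motility signalling had 16 of 24 above 0 (median 0.17), with 4 rises and 1 fall. Catsper2, of the sperm calcium channel, had 201 and 210 CPM in KO against 146 and 163 CPM in WT. The 30 genes of the acrosome and of sperm-egg fusion had a median of 0.05 (-0.01 without WT_1 and 0.14 without KO_1), with 3 rises and 0 falls. Acrbp, the proacrosin-binding protein, had 392.4 and 443 CPM in KO against 283 and 316 CPM in WT, with the KO libraries higher. The list of germ cell energy isoforms also holds common counterparts such as Pgk1 and Pdha1. It had 23 of 29 above 0 (median 0.11, and 0.04 with library totals), 3 rises and 3 falls. Cox6b2, Cox8c and Pgam2 rose, and Cox7b2, Pgk1 and Pdha1 fell, the last 2 being X-linked.

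The genes of chromatin change in spermatids, the process in which ATAD2 was studied, were described in 4 lists. The list of the histone-to-protamine transition had 18 of 23 above 0 (median 0.14, but 0.02 without WT_2 and 0.28 without WT_1), KO libraries lay above WT libraries in 9 and below in 0 (27.8% and 31.1% of all genes), and Hspa2 was the single call in the day 26 fit. Hist1h2ba, which encodes the testis histone TH2B, had 840 and 929 CPM in KO against 785 and 651 CPM in WT (log2 fold change 0.30, SE 0.527). The KO libraries lay above the WT libraries without a call in either fit. Histone H3.3 is encoded by H3f3a, at 174 and 181 CPM in KO against 160 and 154 CPM in WT, and H3f3b, at 506 and 497 CPM in KO against 463 and 528 CPM in WT. The H3f3b values overlapped. Of the 13 genes of H3.3 and its chaperones 6 were above and 7 below 0 (median -0.02, but -0.10 without WT_1 and 0.05 without WT_2). Asf1b, a chaperone of histones H3 and H4, rose in the day 26 fit (56.8 and 59.1 CPM in KO against 47.0 and 41.8 CPM in WT). Atrx, the X-linked remodeller that deposits H3.3 with DAXX, fell in it (87.6 and 89.1 CPM in KO against 111 and 124 CPM in WT).

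Of 19 genes of FACT, CAF-1 and other chaperones 12 were below 0 (median -0.13, and -0.20 without WT_1). Supt16, of FACT, had 170 and 152 CPM in KO against 173 and 216 CPM in WT and did not pass (adjusted p = 0.154 in the edgeR day 26 fit). The calls of that fit were Chaf1b, a CAF-1 subunit, higher, and Rbbp7 and Anp32e, which binds histone H2A.Z, lower. Anp32e had 25.1 and 23.9 CPM in KO against 34.3 and 35.3 CPM in WT. Bromodomain genes and acetyltransferases had 22 of 35 above 0 (median 0.06, and 0.14 without WT_2), with 5 rises and 4 falls that include Atad2. Kat5 had 129 and 138 CPM in KO against 93.9 and 103 CPM in WT, and Kat2b 55.5 and 56.5 CPM in KO against 79.7 and 79.8 CPM in WT, 2 acetyltransferases that moved in opposite directions. Under other scalings the medians of this list and of the H3.3 list lay on either side of 0 (up to 0.11 for the former and between -0.09 and 0.03 for the latter).

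**Figure D4:**
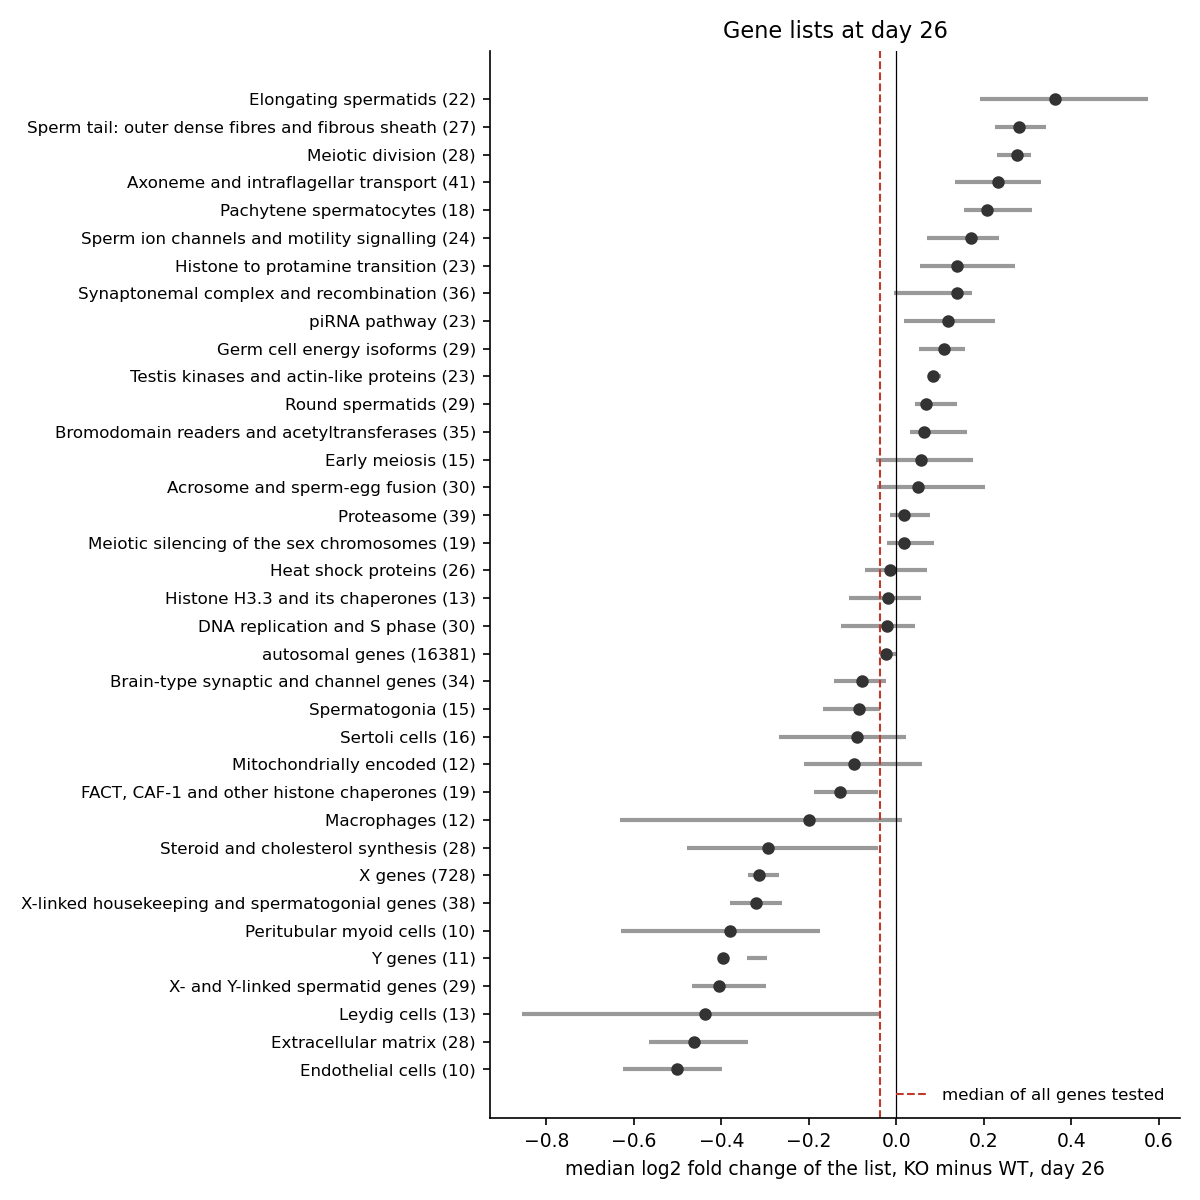
Points are the median log2 fold change, KO minus WT, of the gene lists at day 26 (the epididymis and blood lists are not drawn) with the number of genes tested in parentheses, and bars span the medians of the 4 pairings of a KO with a WT library. Elongating spermatid, sperm tail and meiotic division genes lie highest (0.36, 0.28 and 0.28) and extracellular matrix and endothelial genes lowest of the lists drawn (-0.46 and -0.50), with long bars for Leydig cells and macrophages.

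Somatic genes lay on the other side of 0. All 28 genes of the extracellular matrix were below 0 (54.3% of all genes were), the median was -0.46 (-0.36 at day 24), 11 fell and 0 rose in the day 26 fit, and in 18 the KO libraries were below the WT libraries. Fbn1, which encodes fibrillin, had 80.3 and 71.0 CPM in KO against 145 and 118 CPM in WT (log2 fold change -0.80, SE 0.274, adjusted p = 0.00394 in the edgeR day 26 fit). Laminin genes Lama4 and Lamc1 had log2 fold changes of -0.80 (SE 0.307) and -0.75 (SE 0.225). Col1a1, of the main fibrillar collagen, had 421 and 345 CPM in KO against 279 and 590 CPM in WT, so that its WT libraries enclosed the KO libraries. For Col1a1, Col1a2 and Col3a1 WT_2 was the higher WT library, while for Lama2 and Col4a1 it was WT_1. The part of the makeup of the testis in the somatic and germ cell results was not tested.

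All 10 endothelial genes were below 0 (median -0.50, and -0.42 at day 24), and 2 fell in the day 26 fit. Cdh5, the cadherin of endothelial junctions, had 13.4 and 18.2 CPM in KO against 30.4 and 23.4 CPM in WT, and Esam, an adhesion molecule of the same junctions, 1.86 and 1.66 CPM in KO against 4.46 and 4.59 CPM in WT. The summed level of the list was 54.3 and 59.6 CPM in KO against 84.6 and 79.9 CPM in WT. Pecam1, with 4.89 and 5.05 CPM in KO against 5.04 and 8.82 CPM in WT, overlapped. Of 10 peritubular genes 9 were below 0 (median -0.38, and -0.20 without WT_1). Myh11, smooth muscle myosin, had 91.9 and 69.3 CPM in KO against 128 and 119 CPM in WT and was the single call of the day 26 fit (adjusted p = 0.0155, edgeR). The Sertoli list had 12 of 16 below 0 with a median of -0.09, which was 0.01 without WT_1 and -0.21 without WT_2. Its calls in the day 26 fit were 2 rises, Clu (922 and 942 CPM in KO against 791 and 671 CPM in WT) and Trf, the latter encoding transferrin.

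Leydig cell genes rested on 1 library. All 13 were below 0 with a median of -0.44, but the summed level was 1454 and 1296 CPM in KO, 1537 CPM in WT_2 and 2436 CPM in WT_1, and the median was -0.06 without WT_1 and -0.68 without WT_2. Cyp11a1, which cleaves the side chain of cholesterol, had 223 and 167 CPM in KO against 505 and 266 CPM in WT (log2 fold change -0.99, SE 0.532, adjusted p = 0.33 in the edgeR day 26 fit). Cyp17a1, of androgen synthesis, had 397 and 377 CPM in KO against 682 and 445 CPM in WT. In both the gap between the WT libraries was larger than that between WT_2 and the KO libraries. At day 24 the median of the list was 0.74, of the opposite sign. Cholesterol synthesis gave steadier values for a few genes. Hmgcs1, which makes HMG-CoA, had 144 and 153 CPM in KO against 272 and 220 CPM in WT (log2 fold change -0.73, SE 0.19, adjusted p = 0.00432 in the edgeR day 26 fit), and Hsd17b7 11.5 and 9.87 CPM in KO against 19.5 and 20.7 CPM in WT. Over the 28 genes of steroid and cholesterol synthesis 23 were below 0 (median -0.29, but -0.13 without WT_1 and -0.49 without WT_2), 5 fell and 1, Fdft1, rose in that fit. The 12 macrophage genes had a median of -0.20, which was -0.05 without WT_1 and -0.56 without WT_2. Cx3cr1, the fractalkine receptor, had 8.88 and 9.18 CPM in KO against 28.6 and 16.2 CPM in WT, and Lyz2, with 50.7 and 49.3 CPM in KO against 61.6 and 39.1 CPM in WT, overlapped.

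Of the 8 genes that fell, 2, Mdga2 and Ptpro, belong to a list of 34 synaptic and channel genes best known from brain, which also holds Grin2b and Kcnab1. The list was assembled with these falls known and is a description of them. It had 16 members above and 18 below 0 and a median of -0.08, which was 0.02 without KO_1 and -0.15 without KO_2. In the day 26 fit 6 fell: Grin2b, Grik2, Kcnab1, Mdga2, Ptpro and Nps, and 2 rose, Cntnap2 among them. Grik2, a kainate receptor subunit, had 4.06 and 4.36 CPM in KO against 12.6 and 10.1 CPM in WT (log2 fold change -1.43, SE 0.336). Nps, which encodes neuropeptide S, had 0.275 and 0.229 CPM in KO against 1.04 and 1.43 CPM in WT. Cntnap2, a neurexin-like cell adhesion protein, had 44.2 and 45.0 CPM in KO against 29.0 and 32.1 CPM in WT, and Dlg2, a synaptic scaffold protein, 19.3 and 21.9 CPM in KO against 19.3 and 20.6 CPM in WT. For Dlg2 the genotypes overlapped.

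Genes of the X chromosome were shifted as a whole. Of 728 X-linked genes tested 633 had a log2 fold change below 0, and their median was -0.31, against medians of -0.07 to 0.03 on the 19 autosomes. In the day 26 fit 106 of 686 fell and 0 rose, against 759 falls and 1228 rises among 15689 autosomal genes, and KO libraries lay below WT libraries in 446 and above in 32. On the Y chromosome 10 of 11 genes were below 0 (median -0.40) and 2 fell. In any pairing of a KO with a WT library the X median lay between -0.34 and -0.27, and leaving out single libraries gave -0.33 to -0.27. In the same libraries pachytene and elongating spermatid genes lay above 0 (17 of 18 and 22 of 22) and extracellular matrix and endothelial genes below it (28 of 28 and 10 of 10), and the part of the makeup of the testis in the X result was not tested. No gene of either chromosome passed with all 24 libraries in the edgeR fit. The X median at day 24 was -0.04.

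The shift was seen at each level of expression. In 4 bands of the mean log2 CPM, below 1, 1 to 3, 3 to 5 and above 5, the X medians were -0.35, -0.31, -0.31 and -0.30, and the autosomal medians were -0.07, -0.11, -0.06 and 0.03. It also took in genes of different function. Of 38 X-linked housekeeping and spermatogonial genes 35 were below 0 (median -0.32), 13 fell and 0 rose in the day 26 fit, and the KO libraries were below the WT libraries in 33. Rps4x, a ribosomal protein, had 38.2 and 40.6 CPM in KO against 66.0 and 66.6 CPM in WT (log2 fold change -0.75, SE 0.368, adjusted p = 0.00262 in the edgeR day 26 fit). Ddx3x, an RNA helicase, had 116 and 100 CPM in KO against 155 and 158 CPM in WT. In both the gap between genotypes exceeded that between replicates. Of 29 genes listed as X- and Y-linked spermatid genes 26 were below 0 (median -0.41) and 9 fell. The list holds 1 gene that the annotation places on chromosome 13, 1700024P04Rik (log2 fold change 0.21), which did not fall. Cylc1, of the sperm head cytoskeleton, had 45.6 and 41.1 CPM in KO against 63.3 and 60.2 CPM in WT.

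The 6 X-linked genes with the highest CPM, a choice that favours long genes, are given next. Usp9x, a deubiquitinase, had 355 and 335 CPM in KO against 463 and 460 CPM in WT (log2 fold change -0.42, SE 0.267, adjusted p = 0.0149 in the edgeR day 26 fit), and Flna, filamin A, 195 and 173 CPM in KO against 340 and 265 CPM in WT (adjusted p = 0.00882). Huwe1, a ubiquitin ligase, had 362 and 349 CPM in KO against 436 and 412 CPM in WT, and Maged1 241 and 227 CPM in KO against 279 and 255 CPM in WT, with no call in either fit. Akap4, the main protein of the fibrous sheath, went the other way with 545 and 568 CPM in KO against 528 and 475 CPM in WT (log2 fold change 0.15, SE 0.819). Tmsb4x overlapped, with 175 and 221 CPM in KO against 239 and 223 CPM in WT. Both Akap4 and Tsga8 (123 and 117 CPM in KO against 110 and 110 CPM in WT) are X-linked spermatid genes that lay above 0. The genes of the silencing machinery itself had a median of 0.02 over 19 members (0.10 without KO_2). Of its members Hormad1 was lower and Dot1l, a methyltransferase of histone H3, higher in the day 26 fit.

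**Figure D5:**
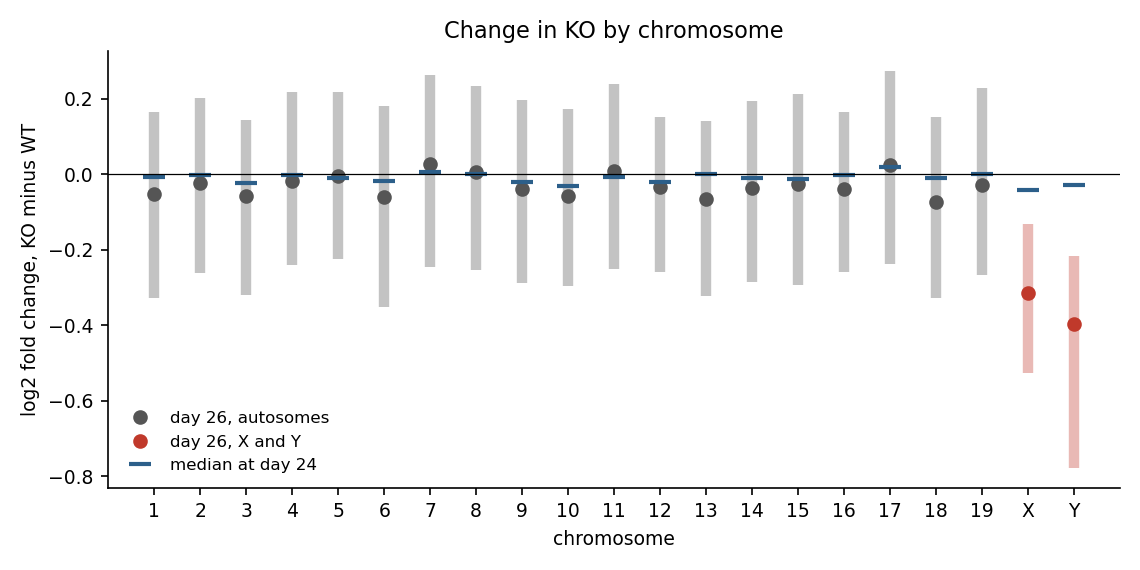
For each chromosome the point is the median and the bar the range from the lower to the upper quartile of the log2 fold changes, KO minus WT, at day 26, and the dash is the median at day 24. The autosomes lie between -0.07 and 0.03, and X and Y lie at -0.31 and -0.40 at day 26 but at -0.04 and -0.03 at day 24.

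Genes were also sorted by what they do in WT as the wave advances, from the WT libraries of days 20 and 24, which do not enter the day 26 difference. Among autosomal genes that rise at least 2-fold in WT over these days, the 1892 tested had a median of 0.11 at day 26. KO libraries were above WT libraries in 39.1% of them and below in 17.2%. The 156 autosomal genes that fall in WT had a median of -0.07 (-0.01 without WT_1, -0.03 without KO_1), and the 14333 others one of -0.04. X- and Y-linked genes that rise in WT, 138 in number, had a median of -0.38. KO libraries were above in 5.07% and below in 56.5% of these, so their shift was opposite to that of autosomal genes of the same class. The 36 sex-linked genes that fall in WT had a median of -0.12. Without single libraries of the series the median of the rising autosomal genes ranged from 0.09 to 0.17, and it was 0.04 with library totals and 0.16 with RLE size factors.

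Other processes moved little. Under other scalings the medians of the early meiosis, acrosome, silencing, replication, proteasome and heat shock lists crossed 0. All of these but the silencing list also crossed 0 without single libraries. No direction is read for any of these lists. The median was 0.02 over 39 proteasome genes, with 3 rises and 0 falls in the day 26 fit (7.51% and 5.27% of all genes), and -0.02 over 26 heat shock genes, with 4 rises and 1 fall. DNA replication genes had a median of -0.02 over 30 members, with Mcm7 higher (193 and 187 CPM in KO against 137 and 148 CPM in WT) and Mcm6 lower (39.2 and 33.7 CPM in KO against 48.2 and 53.4 CPM in WT). Of 23 genes of the piRNA pathway, which silences transposons in germ cells, 16 were above 0 (median 0.12, but 0.03 without WT_1 and 0.22 without WT_2). Tex15 fell in the day 26 fit (623 and 668 CPM in KO against 798 and 859 CPM in WT), and Pld6 and Henmt1 rose. The 23 testis kinases and actin-like proteins had a median of 0.08 (0.02 with library totals), with 1 rise and 2 falls, the falls being the X-linked Actrt1 and Cylc1. Of 12 mitochondrially encoded genes 8 were below 0 (median -0.10, but 0.02 without KO_1 and -0.18 without KO_2). The single call of the day 26 fit was the ribosomal RNA mt-Rnr1, at 4235 and 3148 CPM in KO against 2508 and 2400 CPM in WT. Ribosomal RNA had been removed from the libraries, and what remained of the mitochondrial kind was 0.170% to 3.26% of counts over the series. The part of this removal in the mt-Rnr1 value was not tested.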

How the data were processed

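RNA from testis was sequenced by the authors in 24 libraries as stranded, ribosome-depleted read pairs. Per the labels and the study's methods, read pairs were aligned to mm10 with STAR 2.7.11b, and HTSeq counted uniquely aligned pairs per gene over exons with strand. The deposited files hold these raw counts for 24456 genes and 5 tallies of unassigned pairs. The tallies were left out (in the day 26 libraries, 45.1% to 50.5% of pairs met no feature and 7.18% to 8.86% aligned to several places). The submitters' notes also name DESeq2 1.22.2, whose output was not used here.

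Here edgeR 4.0.16 (R 4.3.3, limma 3.58.1) was used with TMM factors, a filter at a minimum count of 10 (filterByExpr) and robust quasi-likelihood tests with Benjamini-Hochberg adjustment at 0.05, over 8 groups of genotype and age. The same test was run on the 4 day 26 libraries alone and is given beside it. SE is the log2 fold change over the square root of F. Contrasts were KO minus WT at day 26, and that difference minus the one at day 24 or the mean of days 20 to 24. DESeq2 1.42.0, other scalings, no filter, fewer ages, a replicate block and leaving out each library were the alternatives. The fits were also tested on simulated data.

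Genes named were Atad2, the changed genes, the 12 highest and 12 lowest log2 fold changes by the rule in the text, up to 4 members per list and 6 X-linked genes with the highest CPM, with further members named after their values were seen. The comparison and the 35 gene lists were chosen with earlier results of these data known. No deposited comparison column was used. Genes were placed on mm10 by symbol (23378 in GENCODE, 675 by an older symbol, 272 in RefSeq, and 131 not placed).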

Additional observations from a re-analysis of the deposited data

How the results depend on the processing

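The number of genes changed at day 26 was the value that moved most. Against 8 genes (0 higher, 8 lower) in the edgeR fit over all libraries, library totals in place of TMM factors gave 30 (0 higher, 30 lower), DESeq2 153 (77 higher, 76 lower), days 24 and 26 only 1885 (1167 higher, 718 lower) and the day 26 libraries alone 2104 (1236 higher, 868 lower). Leaving out single libraries gave 0 to 103 genes (0 to 39 higher, 0 to 64 lower), with 0 without KO_1 or KO_2 of day 26 and 103 without WT replicate 2 of day 20. For the day 26 libraries alone, DESeq2 gave 1614 (1068 higher, 546 lower), and leaving out single libraries 13 to 4823 (1 to 2464 higher, 12 to 2359 lower). The cause of these differences was not tested. Of the 8 genes, 8 were also called with library totals, DESeq2 and the day 26 libraries alone, and 6 with RLE factors, where 4930522O17Rik and Fcgr3 were lost.

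The labels number replicates alike in all groups. Over 12 pairs of same-numbered libraries, the correlation of deviations from group means ran from -0.412 to 0.657, was over 0.1 in 8 pairs and was 0.153 at day 26. With 2 libraries per group, as at days 24 and 26, both pairs of a day share 1 value. Of the 12, 6 correlated best with their own number, and epididymal RNA was seen in replicate 2 of both genotypes at day 26. As not every pair was over 0.1, the numbers were not taken as pairs. With the replicate block, 5 genes were changed over all 24 libraries (0 higher, 5 lower, 4 of them among the 8, with Mdga2, Fcgr3, 4933406K04Rik and 4930522O17Rik lost) and 3613 in the day 26 libraries alone (1914 higher, 1699 lower).

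The log2 fold change of the targeted gene Atad2 passed the threshold with library totals (-1.32), DESeq2 (-1.20), the day 26 libraries alone (-1.24), days 24 and 26 only (-1.24) and the replicate block at day 26 (-1.23), and did not pass with RLE factors (adjusted p = 0.0813), no filter (0.0634) or the replicate block over all libraries (0.0691), the last 3 in edgeR. It ranged from -1.38 to -1.09 without single libraries and missed the threshold in 23 of 24 such fits (adjusted p 0.000957 to 0.863). The median over X and Y genes was -0.27 with RLE factors, -0.38 with library totals, -0.27 with DESeq2 and -0.29 with the replicate block at day 26, and -0.33 to -0.27 without single libraries. The KO effect differed from that of day 24 for 0 to 1 genes without single libraries, and from the mean of days 20 to 24 for 3 genes with DESeq2. No called value changed sign. Levels under 0.156 to 0.203 CPM (3 counts) were below the floor of these depths.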
